A study of Camelus dromedarius with 4 samples.

Results

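Collagens, laminins and the other building blocks of the basement membrane were examined in the supraoptic nucleus (SON) of the dromedary camel in winter and in summer. The members were chosen by gene symbol, as every collagen alpha chain, every laminin chain, nidogen 1 and 2 (NID1, NID2), perlecan (HSPG2), agrin (AGRN), fibronectin (FN1) and SPARC. This rule matched 65 symbols in the table of season means, and 64 of them had a mean in each season. SPARC was listed without means. COL4A3BP matched by name, but it encodes a ceramide transfer protein, and it was set aside with season means of 749 in summer and 638 in winter. The other 63 rows stood for 62 distinct matrix genes out of 16053 symbols with means, because COL27A1 was listed under 2 symbols. Of the 63, 58 had a mean of at least 10 normalised reads in a season, the study's own limit, and COL4A6, COL6A5, COL8A2, COL25A1 and LAMB4 did not.

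The samples were 2 winter and 2 summer libraries of the SON, a hypothalamic nucleus whose magnocellular neurones make vasopressin and oxytocin. The tissue came from healthy, hydrated, age-matched adult male camels of the Tergui breed that had received no treatment and were slaughtered in the Algerian Sahara, in one town in winter and in another in summer, so season and place cannot be told apart. The tissue was a whole dissected nucleus, with neurones, glia and vessels together, and fewer cells of a type and less RNA per cell cannot be told apart in it. The study also measured the basal lamina of SON capillaries by electron microscopy in both seasons, and the comparison of matrix genes addresses the transcripts behind that structure.

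The basement membrane is a thin sheet of matrix on which endothelial cells rest and in which pericytes are embedded. Its scaffold is a network of laminin trimers, each of an alpha, a beta and a gamma chain, joined to a network of collagen IV by nidogens and by the heparan sulphate proteoglycans perlecan and agrin. In brain capillaries the endothelium deposits laminins with the alpha 4 and alpha 5 chains, and astrocyte endfeet deposit laminins with the alpha 2 chain. Fibrillar collagens and the collagens that decorate fibrils belong to the interstitial matrix of larger vessels and meninges, and several are also made by neurones.

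The authors deposited 1 mean per season and symbol, in normalised reads (read counts divided by the DESeq size factor of each library). Such a mean is a sum of whole reads, each worth a fixed step in each library, so the reads of the libraries could be solved for. All 16053 symbols gave whole reads within the 6 digits of the table, and 9895 gave a single pair of reads in each season. The table does not name the libraries. Here they are called A and B in winter (size factors 1.33 and 0.946) and C and D in summer (0.922 and 0.877). Where several pairs of reads gave the same mean, their range is stated. Reads counted on gene models ranged from 4379162 to 6902037 per library. Oxytocin (OXT), a product of the magnocellular neurones, had season means of 592 in summer and 621 in winter.

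More matrix genes were expressed at a higher level in winter than in summer. In 36 of 58 the libraries of the seasons overlapped, beside 9245 of all 13811 symbols. In the season means, 34 of the 58 genes were higher in winter and 24 in summer. The share higher in winter was 58.6%, beside 46.2% of all 13811 symbols that reached a mean of 10. More than 2-fold apart were 9 genes higher in winter (2.72% of all symbols passed that fold in that direction) and 2 genes higher in summer (4.53% of all symbols). Those higher in winter included COL6A2, COL22A1, HSPG2, COL9A3, COL16A1, FN1, COL7A1 and COL6A1, and the 2 higher in summer were COL6A4 and COL1A2. At a 1.5-fold difference, 29.3% of the matrix genes were higher in winter, beside 10.1% of all symbols, and 12.1% were higher in summer, the same share as among all symbols. The median log2 ratio of winter over summer was 0.15 for the matrix genes and -0.036 for all symbols. These ratios are of season means and carry no error of their own.

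**Figure D1:**
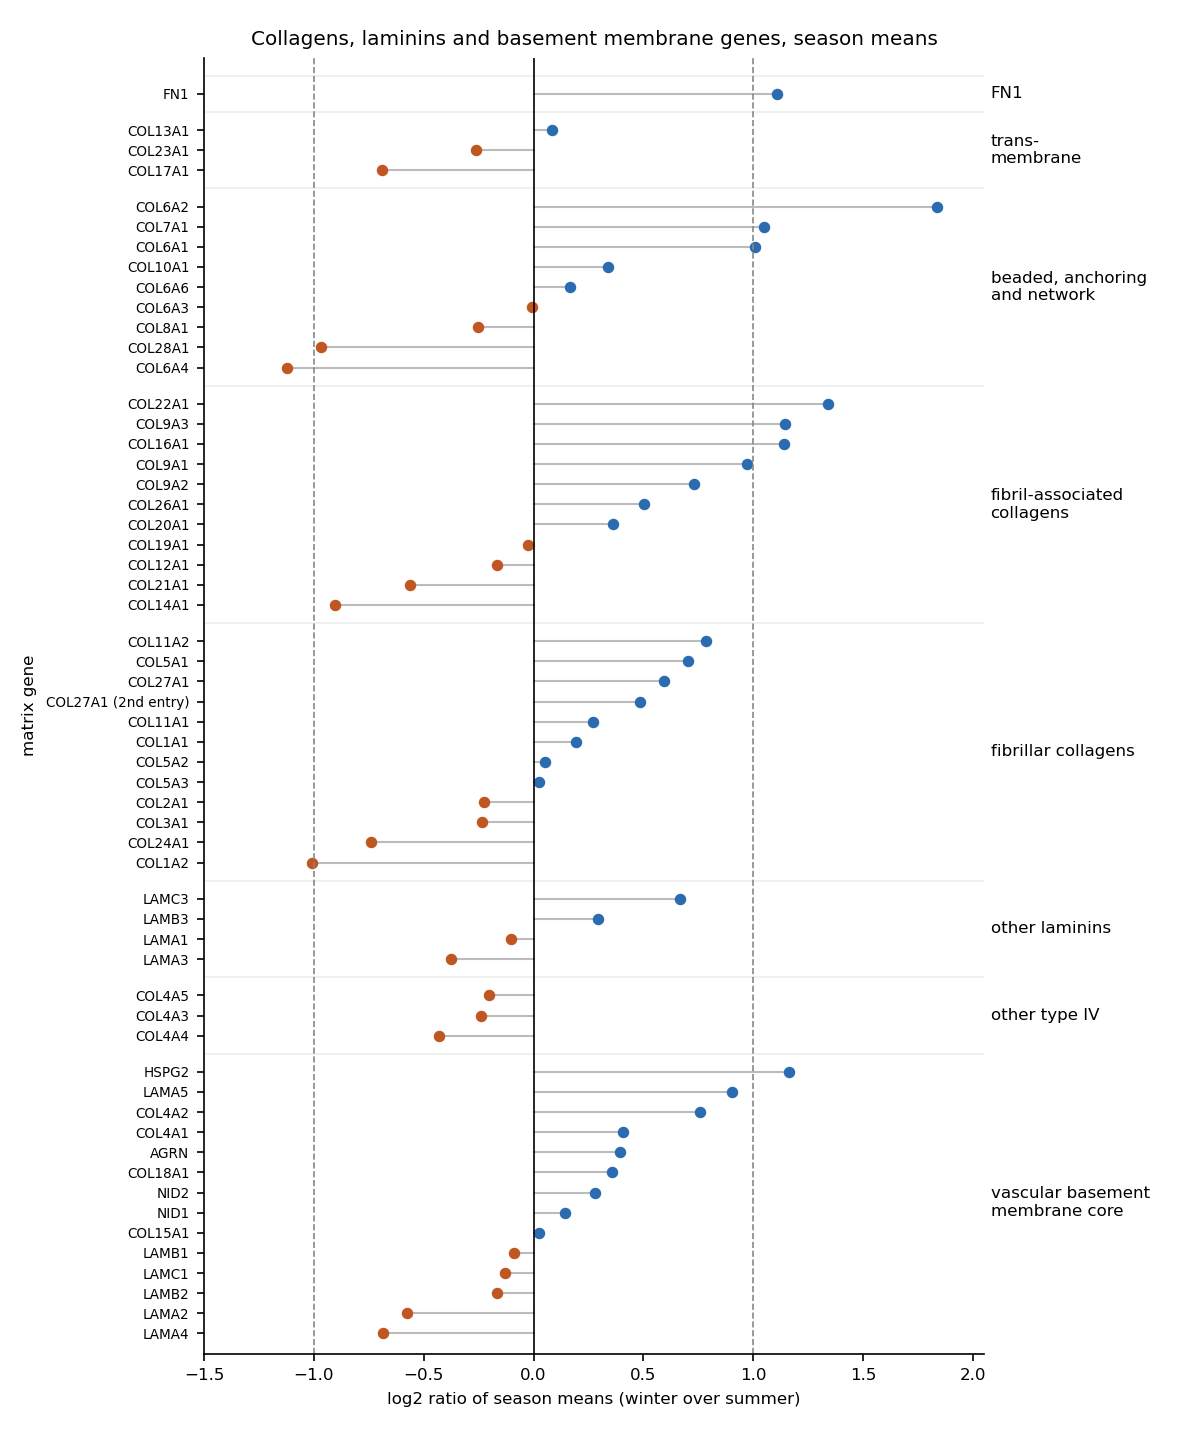
Log2 ratio of the deposited season means, winter over summer, for 57 of the matrix genes with a mean of at least 10 normalised reads in a season, by class (points; blue, higher in winter; orange, higher in summer; dashed lines, 2-fold). The 8 points to the right of the upper dashed line lie in 4 of the 8 classes, and COL6A4 and COL1A2 lie beyond the lower one.

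**Figure D2:**
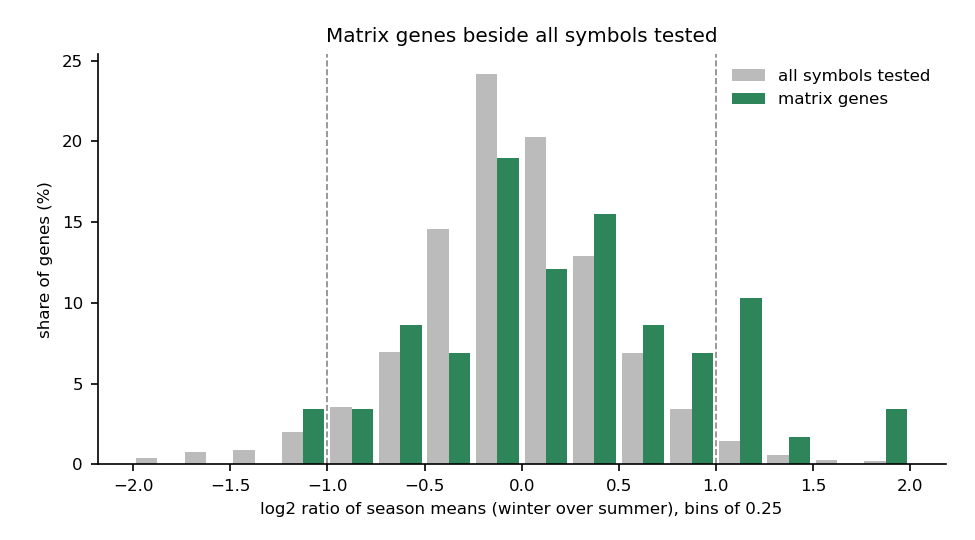
Share of genes (%) in bins of 0.25 of the log2 ratio of season means, for all 13811 symbols tested (grey; 103 lie outside the axis) and the 58 matrix genes (green); dashed lines mark 2-fold. The bin from 1.0 to 1.25 holds 10.3% of the matrix genes and 1.47% of all symbols.

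How stable this was could be read from the libraries. With the reads that split each mean most evenly, the number of matrix genes more than 2-fold higher in winter was 3 without winter library A, 12 without B, 4 without summer library C and 18 without D. Without A or without C the median log2 ratio was -0.048 and -0.0024, and without D it was 0.55. These counts and medians were not taken over all symbols. FN1 lay more than 2-fold higher in winter without A, without B and without C, and at a log2 ratio of 0.92 without D.

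The reads of 32 of the 58 matrix genes were known in every library, and they were tested with edgeR's quasi-likelihood test together with all 7653 symbols of that kind. COL1A2 was the 1 matrix gene with an unadjusted p under 0.05 (1.99% of all symbols passed). The number of matrix genes with a Benjamini-Hochberg adjusted p under 0.05 was 0, and so was that of all symbols (0.0%), against 152 symbols with an unadjusted p under 0.05. The exact test of edgeR and DESeq2 each placed 1 symbol past the adjusted threshold, in neither case a matrix gene. Adjusted p-values of the 32 genes in the quasi-likelihood test were 0.982 or higher. The median log2 fold change of the 32 genes was 0.06, beside -0.11 for the 7653 symbols. Without library A it was -0.30, without B 0.29, without C -0.24 and without D 0.81. The medians of the 7653 symbols were then -0.18, -0.11, -0.16 and 0.16, so all symbols moved with the library left out. The biological coefficient of variation that edgeR estimated within seasons was 0.459. With 2 libraries a season, an exact two-sided permutation test cannot go below p = 0.333. Single read pairs are rarer at high means, so most of the highly expressed vascular genes were outside this test.

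The core of the vascular basement membrane comprised 14 genes, all above the limit of 10. Of these, 9 were higher in winter and 5 in summer, with a median log2 ratio of 0.21 and summed season means of 5801 in summer and 7816 in winter. LAMA5 alone, whose libraries could not be resolved, carried most of that difference, and without it the sums were 4190 and 4808. The collagen IV chains, the proteoglycans and LAMA5 lay on the winter side, and the other laminin chains lay on the summer side. HSPG2 was the 1 core gene more than 2-fold apart.

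HSPG2 encodes perlecan, the large heparan sulphate proteoglycan that cross-links the laminin and collagen IV networks. Its season means were 181 in summer and 405 in winter, 2.24-fold higher in winter. The summer libraries C and D held 147 and 178 reads, or 159 and 203 after normalisation. In winter the mean allows 699 and 267 reads in A and B (527 and 282 normalised) or 884 and 135 reads (667 and 143 normalised). Library A lay above both summer libraries either way, whereas library B lay above them with the first pair and below them with the second. AGRN, a proteoglycan that binds laminin and dystroglycan, had means of 513 in summer and 674 in winter (log2 ratio 0.39), and its seasons were apart in 1 of the 8 combinations of read pairs.

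COL4A1 and COL4A2, the ubiquitous chains that associate in the collagen IV network, were both higher in winter. COL4A1 had 314 and 293 reads in C and D, and 624 and 400, 809 and 268 or 994 and 136 reads in A and B. Its means were 337 and 447 in summer and winter, with a log2 ratio of 0.41, and the seasons were apart with the first of the 3 winter pairs alone. COL4A2 had means of 523 in summer and 884 in winter, 1.69-fold higher in winter (log2 ratio 0.76). Its seasons did not overlap in 2 of 6 combinations of read pairs, and summer lay above winter in 0.

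Laminin alpha 5 (LAMA5), the chain that appears in mature capillaries, had a summer mean of 1611 and a winter mean of 3008, with a log2 ratio of 0.90. At this depth 57 pairs of reads in summer and 161 in winter gave the same mean, so the libraries of LAMA5 could not be told apart. The other vascular alpha chains went the other way. LAMA4, the second endothelial alpha chain, had means of 372 in summer and 231 in winter (log2 ratio -0.69). It had 291 and 376 reads in C and D, and either 288 and 232 or 103 and 364 in A and B. With the first pair each summer library exceeded each winter library, and with the second they overlapped. LAMA2, the alpha chain of astrocyte and mural cell basement membranes, had means of 476 in summer and 320 in winter (log2 ratio -0.57). Its summer mean allows 196 and 756 or 754 and 198 normalised reads in C and D, so LAMA2 differed more within summer than between the seasons, and its seasons overlapped in all 6 combinations.

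The beta and gamma chains that complete these trimers had log2 ratios near 0. LAMB1 had 182 and 140 reads in A and B and 157 and 117 in C and D. After normalisation the lowest value was 133 in D and the highest 170 in C, so both winter libraries lay between the summer libraries. The log2 fold change was -0.09 ± 0.33 (SE, n = 2 libraries a season). Its unadjusted p was 0.789 in edgeR's quasi-likelihood test. LAMB2 had means of 130 in summer and 116 in winter, and LAMC1 460 and 420, and the seasons of each overlapped in every combination of read pairs. Laminin chains as a whole counted 11 genes above the limit, 4 higher in winter and 7 in summer, with a median log2 ratio of -0.10.

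The nidogens, which tie laminin to collagen IV, also had small ratios. NID1 had 269 and 111 reads in A and B and 114 and 146 in C and D, or 203, 117, 124 and 166 after normalisation. Library A was the highest and library B the lowest, so the winter libraries spanned the summer ones (log2 fold change 0.15 ± 0.39, SE, n = 2 libraries a season). The unadjusted p was 0.706 in edgeR's quasi-likelihood test. NID2 had a summer mean of 162 and a winter mean of 196, with a log2 ratio of 0.28, and its seasons overlapped with either winter pair. COL15A1 and COL18A1, the proteoglycan collagens of vascular basement membranes and the source of the endostatin-like fragments, had log2 ratios of 0.02 and 0.36. COL15A1 had means of 506 and 514, and COL18A1 of 233 and 298, in summer and winter, and the seasons of each overlapped in every combination of read pairs.

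FN1, which encodes the fibronectin of plasma, vessel walls and provisional matrix, had its seasons apart. Its summer libraries held 339 and 244 reads (368 and 278 normalised). Its winter mean allows 695 and 819, 880 and 687 or 1065 and 555 reads in A and B, and the lowest normalised winter value among these is 524. Each winter library therefore exceeded each summer library whichever pair is the true one. The means were 323 in summer and 695 in winter, 2.15-fold higher in winter. Among the 58 genes, 7 had each winter library above each summer library in every combination of read pairs (7.81% of all symbols did), and 5 had each summer library above each winter library (9.61% of all symbols). The 7 included FN1, COL7A1, COL9A3, COL16A1, COL22A1 and COL26A1. The 5 were COL1A2, COL4A4, COL17A1, COL21A1 and LAMA3. A further 10 depended on the pair of reads and 36 overlapped, beside 2160 and 9245 of all 13811 symbols.

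**Figure D3:**
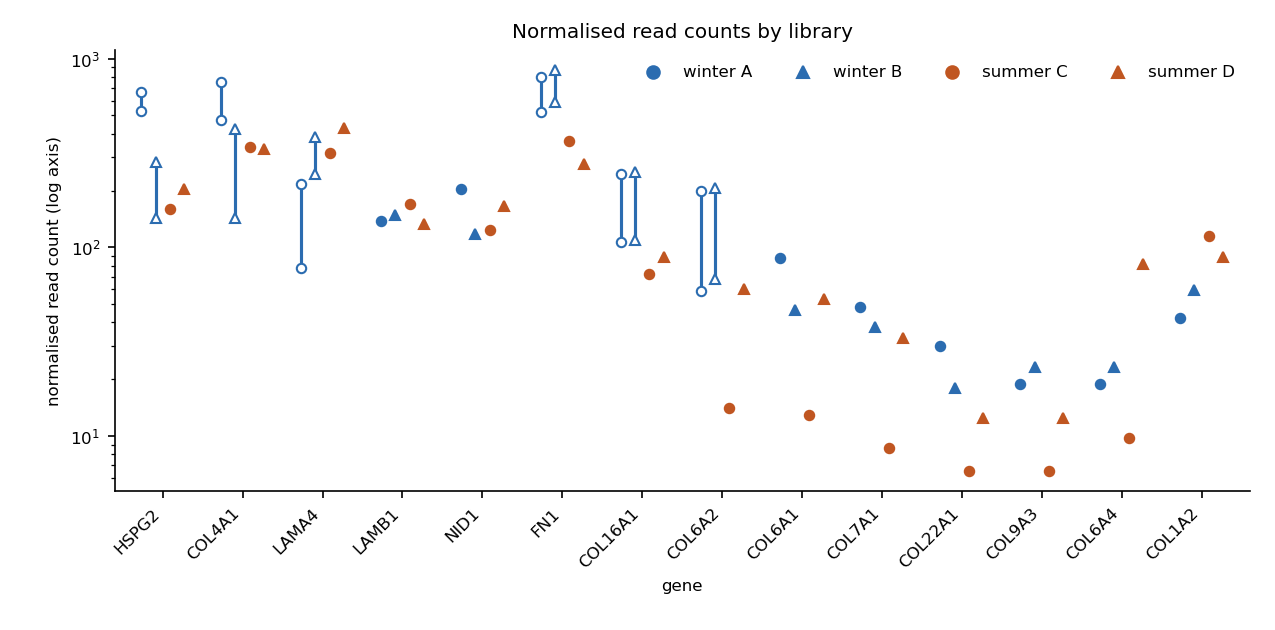
Normalised read counts (log axis) of 14 matrix genes in winter libraries A and B (blue) and summer libraries C and D (orange). Filled symbols are known reads; open symbols joined by a line give the lowest and highest value that the season mean allows, and a high value in A goes with a low one in B. FN1 and COL16A1 lie apart by season throughout, whereas library C alone is low for COL6A1 and COL6A2.

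The other collagen IV chains lay on the summer side. COL4A3, COL4A4 and COL4A5 form the specialised networks of kidney, lung and eye, and their median log2 ratio was -0.24. COL4A3, with the most reads of the 3, had means of 164 in summer and 139 in winter, and its seasons overlapped. COL4A6 had means under 10. Among the remaining laminin chains, LAMA1, the alpha chain of embryonic and meningeal basement membranes, had means of 774 in summer and 720 in winter (log2 ratio -0.10) with overlapping seasons.

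Of the 12 fibrillar collagen rows, 8 were higher in winter and 4 in summer, with a median log2 ratio of 0.12. COL1A2, a chain of collagen I, the main fibril of connective tissue, was the 1 fibrillar gene more than 2-fold apart. It had 56 and 56 reads in winter libraries A and B and 106 and 78 in summer libraries C and D, or 42.3, 59.2, 115 and 88.9 after normalisation. Each summer library exceeded each winter library. It was 2.01-fold higher in summer, with a log2 fold change of -1.02 ± 0.39 (SE, n = 2 libraries a season). The unadjusted p of COL1A2 was 0.0321 in edgeR's quasi-likelihood test, and its adjusted p was 0.982. COL1A1, the partner chain of the same trimer, had a log2 ratio of 0.19, with 67.2 and 25.4 normalised reads in A and B and 43.4 and 37.6 in C and D. The winter libraries of COL1A1 lay on either side of the summer ones. COL5A2, a collagen V chain that nucleates fibrils, had the most reads of the class, with means of 581 in summer and 602 in winter and a log2 ratio of 0.05.

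The fibril-associated collagens, which coat fibrils or bridge them to other matrix (COL26A1 was placed with them), were higher in winter in 7 of 11 genes, with a median log2 ratio of 0.51. COL16A1, found at the border of fibrils and basement membranes, had 67 and 78 reads in C and D, and 141 and 236 or 326 and 104 in A and B. Each winter library lay above each summer library with either pair, and the means were 80.8 in summer and 178 in winter. COL22A1, a collagen of tissue junctions, had 40 and 17 reads in A and B and 6 and 11 in C and D. It did not overlap between the seasons, and its log2 fold change was 1.36 ± 0.78 (SE, n = 2 libraries a season). Its unadjusted p was 0.119 in edgeR's quasi-likelihood test.

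The chains of collagen IX, a heterotrimer of COL9A1, COL9A2 and COL9A3, were all higher in winter in the means. COL9A3 had 25 and 22 reads in A and B and 6 and 11 in C and D, and its winter libraries lay above its summer libraries (log2 fold change 1.13 ± 0.77, SE, n = 2 libraries a season). The unadjusted p of COL9A3 was 0.183 in edgeR's quasi-likelihood test. COL9A1 had means of 305 and 599, and COL9A2 of 504 and 837, in summer and winter. COL9A2, with the most reads of the class, was 1.66-fold higher in winter, and each winter library exceeded each summer library in 3 of its 4 read pairs. COL9A1 did so in 2 of 4. On the summer side of the class, COL14A1, which binds collagen I fibrils, had 119 and 60 reads in A and B and 78 and 177 in C and D, with library D far above the others.

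Collagen VI forms beaded filaments next to basement membranes, and its chains had unlike ratios. COL6A2 had 13 and 53 reads in C and D, and 78 and 196 or 263 and 64 in A and B. Its means were 37.3 in summer and 133 in winter, the largest ratio of any matrix gene (3.57-fold), yet with the first pair library A (58.9 normalised) lay under library D (60.4). COL6A1, its partner, had 116 and 44 reads in A and B and 12 and 47 in C and D. Library C was low, library A was high, and library D lay between the winter libraries. The 2.01-fold higher winter mean (log2 fold change 1.03 ± 0.66, SE, n = 2 libraries a season) thus rested on both A and C. The unadjusted p of COL6A1 was 0.158 in edgeR's quasi-likelihood test. Without A the log2 ratio of the COL6A1 means was 0.48, and without C it was 0.32. COL6A3, the third chain of the classical trimer, had a log2 ratio of -0.01, with 28.7 and 20.1 normalised reads in A and B and 22.8 and 26.2 in C and D. COL6A4, an alternative to COL6A3, had 25 and 22 reads in A and B and 9 and 72 in C and D. Library D alone was high. The log2 fold change was -1.12 ± 0.89 (SE, n = 2 libraries a season), and without D it was 1.09, the opposite direction. The unadjusted p with D was 0.243 in edgeR's quasi-likelihood test.

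Of the other beaded, anchoring and network collagens, COL7A1, the anchoring fibril collagen, had 64 and 36 reads in A and B and 8 and 29 in C and D. After normalisation the winter libraries (48.3 and 38.1) lay above the summer ones (8.68 and 33.1), with B close to D. The log2 fold change was 1.07 ± 0.68 (SE, n = 2 libraries a season). For COL7A1, edgeR's quasi-likelihood test gave an unadjusted p of 0.158. COL8A1, a short-chain network collagen of vessel walls, had the most reads of the class, with means of 356 in summer and 298 in winter and overlapping seasons. Among the transmembrane collagens, COL23A1 had the most reads, with 93 and 64 reads in A and B beside 18 and 128 in C and D, so its summer libraries spanned its winter ones. The class had 1 gene higher in winter and 2 in summer.

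The libraries of a season stood apart from each other for many matrix genes. Among the 32 genes with known reads, 15 (46.9%) were more than 2-fold higher in summer library D than in C, beside 27.3% of the 7653 symbols, and 0 were more than 2-fold higher in C than in D, beside 6.47% of the symbols. In all, 28 of the 32 were higher in D, beside 4730 of the 7653 symbols. COL28A1, a collagen VI relative, had 9 reads in C and 103 in D, and 44 and 30 in A and B. COL24A1, a fibrillar collagen, had 57 and 234 in C and D, and 122 and 99 in A and B. COL10A1, a short-chain network collagen, had 1 and 26, beside 22 and 21 in A and B. These 3 were chosen after their values were seen, for the gap within summer. In winter 24 of the 32 were higher in library A than in B, beside 4088 of the 7653 symbols. By more than 2-fold, 5 of the 32 (15.6%) were higher in A, beside 10.5% of all symbols. The median log2 ratio was 0.90 for D over C and 0.35 for A over B, beside 0.28 and 0.057 for all symbols (0.5 was added to each normalised count). The exceptions, higher in C than in D, were COL1A1, COL1A2, COL13A1 and LAMB1. These shares were not tested against each other.

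**Figure D4:**
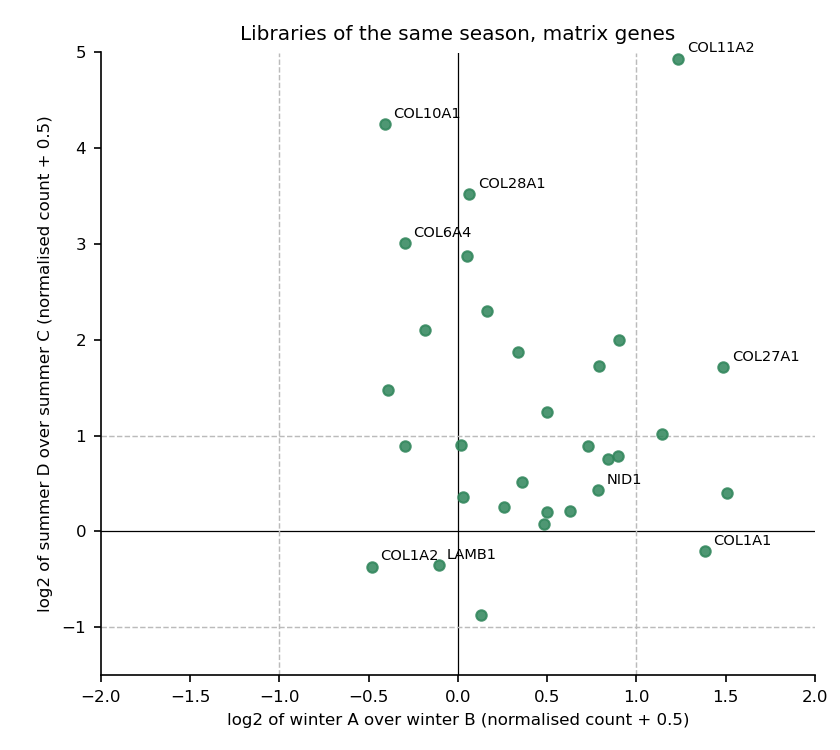
Log2 ratio of the libraries of a season for 31 of the matrix genes with known reads: winter A over B (x axis) and summer D over C (y axis), after adding 0.5 to each normalised count; dashed lines mark 2-fold. Of the points, 27 lie above 0 on the y axis and 24 to the right of 0 on the x axis.

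The sum of the normalised reads of these 32 genes was 2494 in A and 1770 in B in winter, and 1636 in C and 2901 in D in summer. The endothelial and mural cell markers had another order. The 9 endothelial markers with known reads summed to 664 in A, 691 in B, 1129 in C and 873 in D, and the 6 mural cell markers with known reads to 318, 315, 495 and 382. The 8 markers of fibroblasts and meninges with known reads summed to 400 in A, 370.1 in B, 374 in C and 553 in D. Like that of the matrix genes, this sum was highest in D, but its members differed. From C to D, SLC22A6 went from 4.34 to 67.2, TBX18 from 39.0 to 106 and DPT from 2.17 to 61.6. PDGFRA (130 and 72.9) and FOXC1 (19.5 and 18.2) were lower in D than in C, and ISLR was highest in A. The sum of 2 choroid plexus markers was also highest in D (121 in A, 77.2 in B, 94.3 in C and 177 in D). FOLR1 held most of it (163 in D), and AQP1 was highest in A (17.4, beside 13.7 in D). Sums were highest in D too for 20 genes of collagen biosynthesis (1452, 1227, 1046 and 1580) and for 16 other basement membrane proteins (900, 931, 526 and 1450). So was the sum of 7 basement membrane receptors (414, 402, 323 and 559). The 3 astrocyte markers with known reads had 334 in A, 157 in B, 137 in C and 296 in D, and the 1 neuronal marker 53.6, 37.0, 15.2 and 33.1. All 9895 symbols with known reads, low means included, held 582561, 390305, 379713 and 441781 reads in A, B, C and D. Divided by the size factors, that total too was highest in D. The part of these lists in the matrix result was not tested.

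Over whole lists, the season means of the 16 endothelial markers above the limit summed to 3385 in summer and 3279 in winter, with 6 higher in winter and 10 in summer. CDH5, the endothelial cadherin, and ROBO4 had log2 ratios of 0.91 and 0.69, and KDR, a VEGF receptor, and MFSD2A, a lipid transporter of the barrier, -1.26 and -0.84. The 10 mural cell markers summed to 1028 and 1047, with 5 in each direction, led by CNN1 and NOTCH3 at 1.60 and 1.13 and by RGS5 and ACTA2 at -0.83 and -0.73. The 10 markers of fibroblasts and meninges summed to 10570 and 10860, with 4 higher in winter and 6 in summer. In that list ISLR and SLC22A6 had log2 ratios of 0.49 and 0.39, and DPT and TBX18 -1.73 and -0.98. The seasons of each overlapped. DPT had 10 and 11 reads in A and B and 2 and 54 in C and D, so library D alone was high. Of 6 choroid plexus markers 2 were above the limit, FOLR1 at -0.58 and AQP1 at 0.57. None of the listed markers with means was at 0 in a season.

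Of the 7 astrocyte markers, 3 were higher in winter and 4 in summer. By more than 1.5-fold, 4 were higher in summer and 0 in winter, beside 12.1% and 10.1% of all symbols. The 7 had a median log2 ratio of -0.65, beside -0.036 for all symbols. Their sum of 37900 in summer and 22990 in winter rested on GFAP, the intermediate filament of astrocytes (25074 and 14423), and the calcium-binding protein S100B (11788 and 7490). AQP4, the endfoot water channel, and GFAP had log2 ratios of -1.01 and -0.80, and ALDH1L1 and SLC1A2 of 0.28 and 0.22. AQP4 had 9 and 3 reads in A and B and 9 and 9 in C and D, so its ratio rested on few reads. The 4 neuronal markers above the limit were all higher in winter in the means, summing to 438 and 665 (RBFOX3 0.91, SYT1 0.84). RBFOX3 alone had each winter library above each summer library in every read pair (7.81% of all symbols). The seasons of SYT1 overlapped, and for SNAP25 and GAP43 that depended on the pair of reads. The part of a different mix of cells in the matrix ratios was not tested.

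The machinery that makes and cross-links collagen was near balance as a list. Of its 30 genes above the limit, 17 were higher in winter and 13 in summer, with a median log2 ratio of 0.12, and 1 in each direction was past 2-fold (2.72% of all symbols in winter and 4.53% in summer). These were TLL2 and TLL1, both metalloproteases of the tolloid family. TLL2 had means of 59.6 in summer and 120 in winter (log2 ratio 1.01), and TLL1 35.8 and 17.6 (-1.02). Whether the seasons of TLL2 overlapped depended on the pair of reads. TLL1 had 20 and 19 reads in A and B and 4 and 59 in C and D, so library D alone was high. LOXL3, a lysyl oxidase, was next on the winter side at 0.76, and CRTAP, a subunit of the prolyl 3-hydroxylase complex, on the summer side at -0.58. Each winter library exceeded each summer library in every read pair for 4 of the 30 genes (7.81% of all symbols), and the reverse held for 2 (9.61% of all symbols).

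Of the other proteins of basement membranes, 9 of 21 were higher in winter and 12 in summer, with a median log2 ratio of -0.063, beside 46.2% of all symbols higher in winter and a median of -0.036. SMOC2, a calcium-binding matricellular protein, was the 1 gene of this list more than 2-fold higher in winter (means of 11.7 in summer and 31.6 in winter, log2 ratio 1.43), followed by FBLN1, a fibulin that binds fibronectin and nidogen, at 0.75. More than 2-fold higher in summer were 3 of the 21 genes, beside 4.53% of all symbols (2.72% in the winter direction). The leading ones were HMCN1, hemicentin 1, with means of 523 and 228 (log2 ratio -1.20), and FBN2, fibrillin 2, with 166 and 77.3 (-1.11). Whether the seasons of HMCN1 overlapped depended on the pair of reads. FBN2 had 69 and 97 reads in A and B and 23 and 270 in C and D, so library D alone was high.

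The list of cell receptors for the basement membrane also held DMD and UTRN, which are intracellular linkers, and MAG, a myelin glycoprotein. Of its 19 genes, 9 were higher in winter and 10 in summer, with a median log2 ratio of -0.16. Of all symbols, 46.2% were higher in winter, with a median of -0.036. SGCA, a subunit of the sarcoglycan complex, had means of 394 in summer and 708 in winter (log2 ratio 0.84), and BCAM, a receptor for laminin alpha 5, 26.3 and 46.2 (0.81). BCAM was the 1 receptor with each winter library above each summer library in every read pair (7.81% of all symbols). The reverse held for 1 other receptor (9.61% of all symbols). ITGA2 and ITGA1, alpha subunits of collagen-binding integrins, had log2 ratios of -1.01 and -0.70. ITGA2 was the 1 receptor more than 2-fold apart, beside 4.53% of all symbols in the summer direction and 2.72% in the winter direction. It had 36 and 46 reads in A and B and 30 and 105 in C and D, so library D alone was high.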

How the data were processed

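Total RNA of the supraoptic nucleus was sequenced after rRNA removal from 2 winter and 2 summer samples, grouped by the season in the labels. Per the study's methods, 2 camels were used in each season. The labels do not name the animals, and p-values measure the spread between these samples. Reads were mapped by the authors with TopHat to a dromedary genome they had assembled, and HTSeq counts were deposited, unnormalised, for 64989 gene models per library; the last 5 entries of each file are tallies, and 20.7% to 27.8% of tallied alignments lay on gene models. The gene models carry no symbols, so these counts gave the depth alone. The deposited table of symbols holds, per season, a signal (counts over DESeq size factors, averaged) and the edgeR fold change and p-value of the authors, which were not used.

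Whole reads were solved from the means with a tolerance of 1.05 times the rounding error of 6 digits. Winter pairs of reads for one mean differ by fixed steps. For 7653 symbols that reached a mean of 10 and had 1 pair per season, the seasons were compared in edgeR 4.0.16 (R 4.3.3; glmQLFit, glmQLFTest), using size factors from the steps, with Benjamini-Hochberg adjustment. Standard errors are the fold change divided by the root of the F statistic. Alternatives were DESeq2 1.42.0, edgeR's exact test, voom in limma 3.58.1, other scalings, filters and pseudocounts, leaving out each library, and the most and least even pairs of reads, the last 2 for all 13811 symbols and chosen after seeing the data, as were leaving out a library from season means and counting COL4A3BP. The solving and the tests were tested on simulated data.

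The members and lists were chosen with earlier results of these data known. Named were the vascular core, FN1, members more than 2-fold apart or with an unadjusted p under 0.05, the highest member of each other class, and the 2 largest differences in each direction of the other lists. COL1A1, COL6A3 and COL9A1, as partner chains of named genes, COL14A1, and the 3 genes with a wide gap within summer were added after their values were seen. Levels of different genes were not compared per length. The values of 1 member are not reported here, though it stays in the counts. Sequences were not used here. Precision is limited by the 2 libraries of each season.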

Additional observations from a re-analysis of the deposited data

How the results depend on the processing

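The 9 matrix genes more than 2-fold higher in winter became 17 and 2 at thresholds of 1.5-fold and 3-fold, 5 among genes reaching a mean of 50 and 4 with a pseudocount of 10, and the 2 higher in summer became 7, 0, 1 and 0, and 1 after centring on the median of all symbols or with a pseudocount of 1. Leaving out 1 library moved the winter count from 3 to 18, the summer count from 2 to 5 and the median log2 ratio of 0.15 from -0.048 to 0.55. Of these settings, only the 1.5-fold threshold was also counted over all symbols. On recovered reads, the 1 matrix gene with an unadjusted p under 0.05 became 0 with DESeq2, with scaling by total reads and at means of 100 or less, 10 with the most even and 2 with the least even pairs of reads, and 0 to 12 with 1 library left out; the adjusted count of 0 became 1 with the most even pairs and 0 to 3 with 1 library left out. The median log2 fold change of 0.06 ranged from -0.30 to 0.81 with 1 library left out. With 1 library left in a season, that library is assumed to vary like the other season, and 35 to 1235 of the 7653 symbols then had an unadjusted p under 0.05. The most even pairs understate the spread between libraries and the least even overstate it, by construction; with the most even pairs LAMA5 was the matrix gene past the adjusted threshold. COL6A4 ranged from -1.96 to 1.09 with 1 library left out and reversed without summer library D. The 58 other summary values stayed within 1.5 times or, for medians, within the spread of the libraries. Of single genes, COL6A1 had a log2 fold change of 2.36 without D, with an unadjusted p of 0.000236, and COL9A3 a log2 ratio of 0.67 with a pseudocount of 10. No paired analysis was possible because the seasons share 1 replicate number and the season means carry none. At high means the table's 6 digits leave several pairs of reads.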
